A study of Mus musculus with 24 samples.

Results

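The response of TET-deficient macrophages to a bacterial lipid was described in 4 of the 24 libraries of the series, chosen by their labels. They were 2 libraries of unstimulated TET iTKO bone marrow-derived macrophages (BMDMs, 0 h) and 2 libraries of the same cells after 6 h with Kdo2-lipid A (KLA, 10 ng/ml). The 4 WT BMDM libraries of the same cohort (2 at 0 h and 2 at 6 h) were used for comparison, and the WT BMDM libraries of the Tdg cohort supplied a list of KLA-responsive genes. That list came from the WT contrast in a fit of all 8 BMDM libraries of the Tdg cohort, those labelled Tdg knockout included. The 8 T cell libraries were not used here. The WT animals were C57BL/6 mice, and the TET iTKO mice were C57BL/6 animals homozygous for floxed Tet1, Tet2 and Tet3 (fl/fl), with a CreERT2 transgene (inserted at the Ndor1 locus) and a Rosa26-YFP LSL reporter of Cre activity. CreERT2 is a Cre recombinase that tamoxifen activates, and both Cre-carrying and control mice were injected with tamoxifen. The mice used were 8 to 16 weeks old, and the study does not give the age at injection. The promoter of the transgene is not limited to myeloid cells, so the floxed exons could be lost in every bone marrow lineage. Bone marrow was cultured with L929-cell-conditioned medium and M-CSF, the growth factor of macrophages, and the adherent cells were replated before stimulation. The deposited tables gave the same animal code to the 0 h and the 6 h library of a replicate, so its libraries form 2 pairs. The labels do not say whether the replicates were separate animals, so the p-values below measure only the spread between these libraries.

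KLA is the core lipopolysaccharide of Gram-negative bacteria in a chemically defined form. It binds MD-2 and Toll-like receptor 4 (TLR4), which signals through MYD88 to NF-kB and AP-1 factors, and through TRIF to interferon regulatory factors and type I interferon. In macrophages this program is known for a rapid burst of cytokines and chemokines, followed by feedback inhibitors, interferon-stimulated genes and a shift of metabolism. TET1, TET2 and TET3 oxidise 5-methylcytosine in DNA, and in macrophages TET2 has been linked to the control of inflammatory genes. The comparison asked how much of the KLA program was present in cells labelled as lacking all 3 enzymes.

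The 4 TET iTKO libraries held 13145625, 15134181, 17391512 and 19549783 read pairs assigned to genes (replicate 1 at 0 h and 6 h, then replicate 2 at 0 h and 6 h). A gene's detection floor of 3 counts was therefore 1.53e-05% to 2.28e-05% of a library. All 8 listed macrophage markers were present at 50 or more normalised counts, with a summed level of 23253 to 23452 CPM (counts scaled to the library total) at 0 h and 23106 to 23370.5 at 6 h. Markers of other cells were far lower. Neutrophil markers summed to 271 to 381 CPM at 0 h and 201 to 238 at 6 h, and T cell markers to 221 to 296 and 90.7 to 136, led by Il7r and Cd4. Progenitor markers stayed between 7.68 and 28.5 CPM, and were higher in replicate 2 at both times. Of 5 erythroid markers 4 were at 0 in all 4 libraries, as were Prf1 of NK cells and Cd209a of dendritic cells. The part of these cells in the results was not tested, and in bulk RNA fewer cells of a type cannot be told apart from less RNA per cell. The counts were made per gene, so the loss of floxed exons could not be read from them. Tet1 had 7.28 and 1.80 at 0 h and 15.6 and 14.8 at 6 h, an increase that did not pass the test (adjusted p = 0.331). Tet2 rose from 872 and 822 to 1760.1 and 1887 (log2 change 1.11, SE 0.14, adjusted p = 4.04e-14), and Tet3 went from 1814 and 1654 to 1471 and 1451 (log2 change -0.25, SE 0.12, adjusted p = 0.128), which did not pass.

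KLA changed 2726 genes in TET iTKO BMDMs, with 1433 genes higher and 1293 genes lower after 6 h. A gene is called higher or lower here when the Benjamini-Hochberg adjusted p of the DESeq2 Wald test was under 0.05, and 12114 of the 15028 genes with a count had an adjusted p. Genes called higher made up 11.8% of those tested and genes called lower 10.7%, which is the background for every list below. The change was at least 2-fold for 546 of the genes called higher and for 478 of those called lower. Large increases outnumbered large decreases. A log2 change of at least 3 was found for 94 genes called higher and of at most -3 for 31 genes called lower, and at the level of 4 the numbers were 44 and 15. The median log2 change was 0.76 over genes called higher, -0.81 over genes called lower and -0.01 over all tested genes. In 1431 of the genes called higher and 1290 of those called lower the 0 h and 6 h libraries did not overlap, against 61.4% of all tested genes. In WT BMDMs of the same cohort 1555 genes were called higher (13.2% of 11823) and 1318 lower (11.1%). The most abundant transcripts of stimulated TET iTKO cells were Fth1, the ferritin heavy chain, which had 320892 and 329950.0 at 0 h and 350056 and 355457 at 6 h, and Saa3, an acute phase protein, which rose from 156950.0 and 125389 to 220082 and 235679 (log2 change 0.69, SE 0.13, adjusted p = 1.5e-06).

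**Figure D1:**
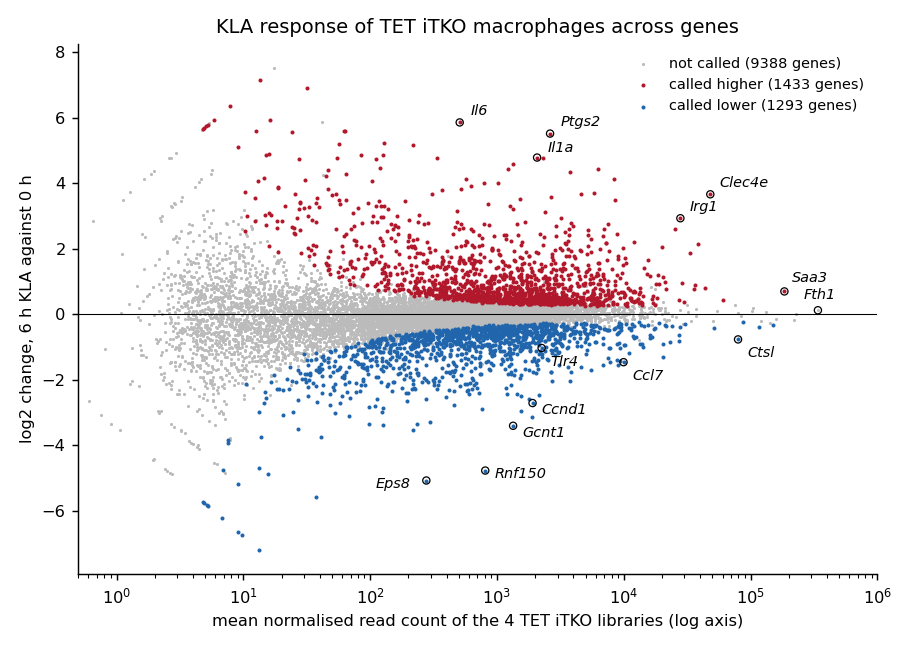
Log2 change after 6 h of KLA (y axis) against the mean normalised count over the 4 TET iTKO libraries (x axis, log scale), 1 point for each of the 12114 tested genes. Genes called higher (1433) and lower (1293) are coloured, selected genes are labelled, and the largest increases lie among genes of low and middle count.

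The 15 largest increases among genes with a mean of at least 50 normalised counts held secreted signals of inflammation beside genes of other roles. Normalised counts are counts divided by the size factor of the library, and values are given for replicate 1 and then replicate 2. Il6, the cytokine interleukin-6 (chr5:30339701-30346508 in mm9), had 7.28 and 27 at 0 h and 621 and 1377 at 6 h (log2 change 5.85, SE 1.02, adjusted p = 1.31e-07). Csf3, which encodes the neutrophil growth factor G-CSF, had 2.43 and 2.70 at 0 h and 109 and 139 at 6 h (log2 change 5.59, SE 0.74, adjusted p = 8.16e-13). Ptgs2, the inducible cyclooxygenase (chr1:151947254-151955140), had 84.9 and 139 at 0 h and 3778 and 6480.4 at 6 h (log2 change 5.51, SE 0.49, adjusted p = 5.84e-28). All 3 genes were low in both unstimulated libraries and higher in replicate 2 than in replicate 1 at both times, with no overlap between the times. Il1a, the alarm cytokine interleukin-1 alpha, rose from 156 and 136 to 3699.7 and 4290.1 (log2 change 4.78, SE 0.18, adjusted p = 4.33e-154), and Il12b, the shared subunit of interleukins 12 and 23, rose from 4.85 and 10.8 to 99.2 and 329 (log2 change 4.74, SE 0.63, adjusted p = 1.22e-12). Edn1, the vasoconstrictor peptide endothelin-1, rose from 6.06 and 17.1 to 334 and 511 (log2 change 5.17, SE 0.91, adjusted p = 1.99e-07). Slc7a11, the cystine importer that feeds glutathione synthesis, rose from 139 and 182 to 4271 and 4566 (log2 change 4.77, SE 0.19, adjusted p = 1.38e-140). In these 4 genes too the stimulated libraries did not overlap the unstimulated ones. Slc1a2 (a glutamate transporter), Epha4 (an ephrin receptor), Shisa3, Pde10a (a cyclic nucleotide phosphodiesterase), Itgb8 (an integrin that activates TGF-beta), Dcbld2, Mycl1 (a MYC family factor) and Rasgrp1 (an activator of Ras) completed the 15, with log2 changes in TET iTKO of 4.57 to 5.60. All 15 were also called higher in WT, with log2 changes from 2.93 in Mycl1 to 7.93 in Il6.

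The 15 largest decreases, by the same rule, were led by Eps8 and Rnf150. Eps8, which caps actin filaments, fell from 628 and 448 to 22.3 and 10.4 (log2 change -5.08, SE 0.34, adjusted p = 5.61e-49). Rnf150, a membrane-bound ubiquitin ligase, fell from 1659 and 1456 to 68 and 47 (log2 change -4.78, SE 0.20, adjusted p = 5.46e-122). Gcnt1, which branches O-linked glycans, fell from 2398 and 2499 to 269.8 and 192 (log2 change -3.41, SE 0.20, adjusted p = 2.25e-65). For each of these genes both 6 h libraries lay far below both 0 h libraries, and the 6 h libraries of Eps8 differed by more than 2-fold from each other. Pdgfc, a platelet-derived growth factor, fell from 269 and 195 to 21.2 and 22.6 (log2 change -3.40, SE 0.35, adjusted p = 4.09e-21). Hip1, an adaptor of clathrin-coated vesicles, fell from 3553 and 3191 to 404 and 362 (log2 change -3.14, SE 0.17, adjusted p = 2.2e-77), and Tns1, which links integrins to actin, fell from 1518 and 1158 to 204 and 154 (log2 change -2.91, SE 0.20, adjusted p = 1.05e-46). The other 9 genes were Fam198b, Zfp395, Zdhhc14, Nxpe5, Mmp10, Lrrc14b, Prune2, Arhgap19 and Tmem154, with log2 changes of -3.55 to -2.88. The WT changes of these 15 genes ran from -4.84 in Rnf150 to -2.48 in Prune2, and all 15 were called lower there too.

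Among 26 genes of the TLR4 receptor complex, its adaptors and kinases, 12 were called higher and 1 lower, with a median log2 change of 0.26. Cd14, the co-receptor that hands lipid A to TLR4, had 3316 and 5218 at 0 h and 16067 and 23261 at 6 h (log2 change 2.20, SE 0.32, adjusted p = 6.84e-11). Ticam2, the adaptor that links TLR4 to TRIF, had 363 and 351 at 0 h and 1244 and 1666 at 6 h (log2 change 2.03, SE 0.19, adjusted p = 6.73e-26). Irak3, which inhibits the IRAK kinases, had 2329 and 2329 at 0 h and 9030.1 and 8274 at 6 h (log2 change 1.89, SE 0.11, adjusted p = 2.33e-68). For each of them both stimulated libraries exceeded both unstimulated ones. Irak2, a kinase of the MYD88 complex, also rose (log2 change 1.20, SE 0.16, adjusted p = 1.65e-12). The receptor itself moved the other way: Tlr4 fell from 3048 and 2994 to 1682 and 1268 (log2 change -1.04, SE 0.13, adjusted p = 3.26e-13). The receptor partner Ly96, which encodes MD-2, was not called (log2 change 0.16, adjusted p = 0.628). It was named after its values were seen.

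Other pattern recognition receptors changed in both directions, with 8 of 20 called higher and 3 lower. Clec4e, the C-type lectin Mincle that senses mycobacterial glycolipids and dead cells, rose from 7534 and 6590.1 to 88915 and 89202 (log2 change 3.66, SE 0.11, adjusted p = 7.6e-234). Tlr2, the receptor for bacterial lipoproteins, rose from 2456 and 2795 to 10669.8 and 10140.4 (log2 change 1.99, SE 0.12, adjusted p = 1.21e-54). Nod1 (1.74, adjusted p = 0.000126) and Nod2 (1.72, adjusted p = 1.55e-16), the cytosolic sensors of peptidoglycan fragments, rose as well (log2 changes). Tlr13, a receptor for bacterial ribosomal RNA, fell from 13195 and 13464 to 4989 and 4056 (log2 change -1.56, SE 0.11, adjusted p = 2.51e-42). Tlr8 (-0.63, adjusted p = 8.49e-05) and Tmem173, which encodes STING (-0.92, adjusted p = 3.55e-05), both sensors of nucleic acids or their products, fell less.

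NF-kB subunits and their inhibitors rose together. Of 19 tested members 16 were called higher and 0 lower, 0 members had an unadjusted p under 0.05 for a decrease, and edgeR called the same numbers. The median log2 change of the list was 1.40, against -0.01 over all tested genes, and its share of all assigned counts went from 0.146% and 0.162% to 0.377% and 0.452%. Traf1, a signalling adaptor of TNF receptors, rose from 720.4 and 835 to 4249 and 5846 (log2 change 2.70, SE 0.18, adjusted p = 2.92e-49). Nfkbiz, a nuclear co-activator of secondary response genes, rose from 776 and 972 to 3309.5 and 4213 (log2 change 2.10, SE 0.15, adjusted p = 8.58e-42). Nfkb2, the precursor of the p52 subunit, rose from 1341 and 1545 to 4822 and 6739.7 (log2 change 2.0, SE 0.15, adjusted p = 7.88e-38), and Nfkbia, the inhibitor IkB-alpha, rose from 3087 and 3287 to 10740.0 and 13330.5 (log2 change 1.92, SE 0.12, adjusted p = 2.87e-52). The count of 16 was the same when each of the 8 libraries was left out in turn, and in WT 17 members were called higher with the same median of 1.40.

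AP-1, ATF, EGR and KLF factors split, with 10 of 27 called higher and 6 lower. Maff (2.32, adjusted p = 6.95e-10), a small MAF factor, Batf (1.65, adjusted p = 1.85e-15) and Batf2 (1.61, adjusted p = 2.11e-08), which pair with JUN proteins, and Cebpd (1.63, adjusted p = 1.67e-13), a factor of the acute phase, had the largest log2 increases. Batf went from 256 and 264 to 667 and 968 and Cebpd from 280.2 and 432 to 906 and 1313. Jun itself fell from 3391 and 3139 to 1607 and 1618 (log2 change -1.02, SE 0.13, adjusted p = 1.64e-13), as did Klf2 (-0.91, adjusted p = 0.000195), Klf4 (-0.78, adjusted p = 0.00231) and Fos (-0.75, adjusted p = 0.000389). Klf4 and Fos were the less secure of these: the Klf4 call was lost without the TET iTKO 0 h library of replicate 1 or the TET iTKO 6 h library of replicate 2 (adjusted p = 0.0597 to 0.0783), and the Fos call with the replicate block (adjusted p = 0.0858) and without the TET iTKO 0 h library of replicate 2 or either TET iTKO 6 h library (adjusted p = 0.0865 to 0.308). When each library was left out the number of members called lower was 3 to 7, and 3 was reached without the 6 h TET iTKO library of replicate 2.

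Cytokine genes rose as a group, with 16 of 24 tested members called higher, 1 lower and a median log2 change of 1.43. Their share of all counts went from 0.104% and 0.106% at 0 h to 0.237% and 0.284% at 6 h. Tnf, the early macrophage cytokine, had 1355 and 1674 at 0 h and 7980.0 and 9816 at 6 h (log2 change 2.55, SE 0.15, adjusted p = 5.77e-65). Il1b, the inflammasome-dependent cytokine interleukin-1 beta (chr2:129190306-129196875 in mm9), had 233 and 478 at 0 h and 5207 and 9179.7 at 6 h (log2 change 4.34, SE 0.50, adjusted p = 1.06e-16). In Il1b the 0 h libraries differed by more than 2-fold between replicates and the 6 h libraries kept that order, while Tnf differed less between them. Il10, the main inhibitory cytokine of macrophages, had 119 and 129 at 0 h and 176 and 246 at 6 h (log2 change 0.77, SE 0.30, adjusted p = 0.0492). The Il10 call was marginal: it was lost in edgeR (adjusted p = 0.0709), in the fit of only the 4 TET iTKO libraries (adjusted p = 0.0601), in that fit with the replicate block (adjusted p = 0.0822) and without either TET iTKO 0 h library, either TET iTKO 6 h library or either WT 0 h library (adjusted p = 0.0529 to 0.475). Ifnb1, which encodes interferon beta, had 20.6 and 32.4 at 0 h and 13.4 and 39.2 at 6 h and did not pass the test (log2 change -0.01, SE 0.82, adjusted p = 0.997), with more spread between replicates than between times. Il18 was the member called lower, from 106 and 152 to 62.4 and 77.4 (log2 change -0.88, SE 0.33, adjusted p = 0.0374), and it was not called with the replicate block nested in genotype (adjusted p = 0.0577), in the fits of 4 libraries without and with the block (adjusted p = 0.105 and 0.135) or without the TET iTKO 0 h library of replicate 2, either TET iTKO 6 h library, either WT 0 h library or either WT 6 h library (adjusted p = 0.0546 to 0.457).

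**Figure D2:**
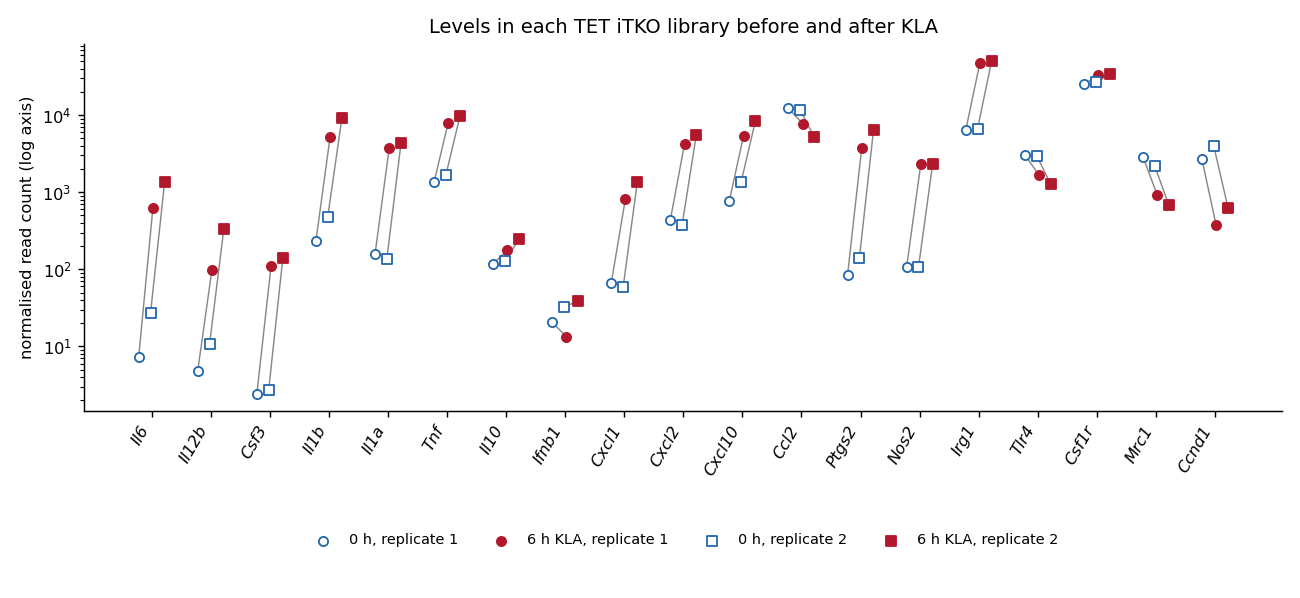
Normalised read counts (y axis, log scale) of 19 genes (x axis) in the 4 TET iTKO libraries, with open symbols at 0 h, filled symbols at 6 h of KLA and a line joining the libraries of each replicate. Both lines of Il6, Ptgs2 and Nos2 rise, those of Ccl2, Tlr4, Mrc1 and Ccnd1 fall, and those of Ifnb1 run in opposite directions.

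Chemokines moved in both directions. Of 21 tested chemokines 9 were called higher and 4 lower. Cxcl1 (chr5:91320267-91322141 in mm9), a ligand of the neutrophil receptor CXCR2, had 66.7 and 58.4 at 0 h and 828 and 1340.1 at 6 h (log2 change 4.12, SE 0.50, adjusted p = 4.31e-15). Its relatives Cxcl3 and Cxcl2 went from 108 and 129 to 1589.5 and 2239 (log2 change 4.01, SE 0.23, adjusted p = 1.19e-67) and from 439 and 381 to 4238 and 5561 (log2 change 3.58, SE 0.18, adjusted p = 1.76e-87), and Ccl3, a ligand of CCR1, went from 1283 and 1476 to 13307 and 17856 (log2 change 3.50, SE 0.15, adjusted p = 2.83e-111). In each the stimulated libraries were far above the unstimulated ones. Ccl7 and Ccl2, ligands of the monocyte receptor CCR2, went down. Ccl7 had 15208 and 14023 at 0 h and 5805 and 4749 at 6 h (log2 change -1.47, SE 0.12, adjusted p = 1.22e-34), and Ccl2 had 12242 and 11617 at 0 h and 7786 and 5145 at 6 h (log2 change -0.88, SE 0.15, adjusted p = 5.18e-08). Ccl12 (-1.04, adjusted p = 3.52e-08) and Ccl6 (-0.86, adjusted p = 9.14e-07) also fell on the log2 scale. In the WT libraries Ccl7 had 14429 and 13313 at 0 h and 10385 and 11133 at 6 h and Ccl2 had 10741 and 10338 at 0 h and 9593 and 10544 at 6 h. The response differed between the genotypes by -1.10 (SE 0.16, adjusted p = 7.3e-08) for Ccl7 and by -0.82 (SE 0.21, adjusted p = 0.0313) for Ccl2 (log2 change in TET iTKO minus that in WT). Ccl7 kept this call when each library was left out and in the fits with a replicate block, but not in edgeR (adjusted p = 0.0875). The Ccl2 difference was lost in edgeR (adjusted p = 0.465), with the replicate block nested in genotype (adjusted p = 0.0713) and without either TET iTKO 0 h library, either WT 0 h library or the WT 6 h library of replicate 2 (adjusted p = 0.208 to 0.448), and Ccl2 was not called in WT (log2 change -0.07). The unstimulated libraries of the genotypes were much closer to each other than the stimulated ones for this pair of genes.

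Cxcl10 and Ccl5, chemokines that also respond to interferon, rose with less certainty. Cxcl10 had 779.8 and 1376 at 0 h and 5433 and 8437 at 6 h (log2 change 2.69, SE 0.84, adjusted p = 0.00821), and the call was lost without the TET iTKO 0 h library of replicate 1 or the TET iTKO 6 h library of replicate 2 (adjusted p = 0.156 to 0.157). Ccl5 had 13411 and 12912 at 0 h and 23252 and 26031 at 6 h (log2 change 0.90, SE 0.30, adjusted p = 0.0127), and the call was lost without either TET iTKO 0 h library or either TET iTKO 6 h library (adjusted p = 0.0820 to 0.180). Cxcl10 was higher in replicate 2 than in replicate 1 at each time, and neither gene overlapped between the times. With the replicate block nested in genotype both genes were called (adjusted p = 1.9e-174 and 6.2e-24).

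Of 20 receptors for chemoattractants 9 were called lower and 5 higher (median log2 change -0.72). C5ar2, the second receptor of complement C5a, fell from 589 and 538 to 128 and 121 (log2 change -2.18, SE 0.21, adjusted p = 9.65e-24). Ccr3 and Ccr1, receptors of CC chemokines, fell from 398 and 599 to 93.6 and 154 (log2 change -2.0, SE 0.27, adjusted p = 5.67e-12) and from 531 and 769 to 177 and 202 (log2 change -1.78, SE 0.23, adjusted p = 3.48e-13). P2ry12, an ADP receptor, went from 36.4 and 47.6 to 6.69 and 13.1 (-2.07, adjusted p = 0.00167), and its call was lost without the TET iTKO 0 h library of replicate 2 or the TET iTKO 6 h library of replicate 1 (adjusted p = 0.0511 to 0.0623). Among the increases were Niacr1, the nicotinic acid receptor (from 50.9 and 50.3 to 668 and 717, log2 change 3.77, SE 0.27, adjusted p = 2.64e-42), Ccrl2, which presents chemerin (from 268 and 227 to 2611 and 2991, log2 change 3.50, SE 0.47, adjusted p = 3.19e-12), and the formyl peptide receptors Fpr1 and Fpr2. Fpr1 had 3268 and 4505 at 0 h and 15178 and 16208 at 6 h (log2 change 2.01, SE 0.14, adjusted p = 1.05e-43) and Fpr2 had 1124 and 1524 at 0 h and 4789 and 5563 at 6 h (log2 change 1.96, SE 0.15, adjusted p = 2.34e-38). Both formyl peptide receptors reached about the same level after KLA in WT, where Fpr1 had 1299 and 1063 at 0 h and 13969.5 and 14779.7 at 6 h and Fpr2 had 433 and 441 at 0 h and 4481 and 5289.7 at 6 h. Their response differed from WT by -1.59 (SE 0.20, adjusted p = 3.01e-11) and -1.52 (SE 0.21, adjusted p = 5.02e-09) on the log2 scale, and the unstimulated TET iTKO libraries were above the unstimulated WT libraries. Neither difference was called in edgeR (adjusted p = 0.0633 for each).

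Promoter sequence was described for the windows from 250 bases before to 50 bases after the start that RefSeq gives in the mouse build GRCm38.p6, which is not the build of the count tables (mm9). Windows were matched by symbol for 9685 of the 12114 tested genes. An NF-kB consensus match on either strand was present in 10.3% of the 1151 genes called higher, in 13.6% of the 169 called higher by at least 2 on the log2 scale, in 6.57% of the 1020 called lower and in 6.12% of all tested genes with a window, against 5.14% of all RefSeq windows. An AP-1 motif (TGANTCA) was present in 7.82% of genes called higher, 10.1% of genes called lower and 6.55% of all tested genes, against 8.97% of all RefSeq windows, and in 12.4% and 16.5% of those higher and lower by at least 2 on the log2 scale. The cyclic AMP response element (CRE, TGACGTCA) had shares of 3.74%, 2.16% and 3.58%, and 2.03% of all RefSeq windows. An interferon-stimulated response element (ISRE) consensus match had shares of 1.82%, 1.86% and 1.71%, and 1.57% of all RefSeq windows. ISRE matches were present in 18 of 40 interferon-stimulated genes with a window. NF-kB matches were present in 10 of 16 NF-kB list genes with a window, 5 of 15 chemokines and 4 of 18 cytokines. These shares are descriptions with no test, and a match is not a binding site. The AP-1 motif and the CRE begin and end alike, but neither contains the other. Overlapping matches of a motif on the same or opposite strands were counted as 1.

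The windows below show matches in genes described here, chosen from the largest called increases with a match (the 8 to print were picked after their values were seen). The NF-kB match is in capitals in Il6, where it begins 44 bases before the start, and in the neighbouring Cxcl1, Cxcl3 and Cxcl2, which share 1 match sequence that begins 71, 73 and 97 bases before the start. The ISRE match is in capitals in Gbp5 (on the opposite strand, 166 bases before) and Cxcl10 (213 bases before), the AP-1 motif in Il1a and the CRE in Fscn1. Only 1 motif is in capitals in each window. The 250 bases before the start also hold an NF-kB match in Gbp5, an NF-kB match and an AP-1 motif in Cxcl10, and an AP-1 motif in Il6. All windows are written in the direction of the gene and end at the base before the start. They are, in GRCm38.p6, chr5:30013014-30013113 (+ strand) for Il6, chr5:90891145-90891244 (+ strand) for Cxcl1, chr5:90786001-90786100 (+ strand) for Cxcl3, chr5:90903799-90903898 (+ strand) for Cxcl2, chr3:142496684-142496933 (+ strand) for Gbp5, chr5:92348890-92349139 (- strand) for Cxcl10, chr2:129309973-129310072 (- strand) for Il1a and chr5:142960255-142960354 (+ strand) for Fscn1.
Il6: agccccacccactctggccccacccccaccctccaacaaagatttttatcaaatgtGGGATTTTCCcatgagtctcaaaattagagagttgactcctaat
Cxcl1: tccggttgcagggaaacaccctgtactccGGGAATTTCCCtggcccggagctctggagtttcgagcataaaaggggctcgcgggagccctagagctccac
Cxcl3: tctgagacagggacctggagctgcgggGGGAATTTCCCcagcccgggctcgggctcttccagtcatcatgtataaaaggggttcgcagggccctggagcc
Cxcl2: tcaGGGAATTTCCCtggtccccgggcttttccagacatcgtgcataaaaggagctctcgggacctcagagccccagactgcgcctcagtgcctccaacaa
Gbp5: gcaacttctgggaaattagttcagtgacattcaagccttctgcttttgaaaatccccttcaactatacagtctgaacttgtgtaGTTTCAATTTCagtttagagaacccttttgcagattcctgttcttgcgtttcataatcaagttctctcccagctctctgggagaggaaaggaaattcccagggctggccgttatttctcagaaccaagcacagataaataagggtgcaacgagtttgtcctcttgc
Cxcl10: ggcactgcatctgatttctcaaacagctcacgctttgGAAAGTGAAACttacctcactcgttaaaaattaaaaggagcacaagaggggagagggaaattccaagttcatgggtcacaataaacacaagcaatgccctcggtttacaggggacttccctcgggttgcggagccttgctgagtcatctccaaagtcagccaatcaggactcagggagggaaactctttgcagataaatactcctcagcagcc
Il1a: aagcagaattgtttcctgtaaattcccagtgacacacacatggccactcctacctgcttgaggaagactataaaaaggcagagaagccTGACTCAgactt
Fscn1: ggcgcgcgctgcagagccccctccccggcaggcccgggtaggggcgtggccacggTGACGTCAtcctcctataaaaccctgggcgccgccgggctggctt

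Enzymes that make prostaglandin E2, nitric oxide and itaconate rose. Of 20 tested members of this list 9 were called higher and 5 lower, and the share of all counts taken by the list went from 0.137% and 0.150% to 0.548% and 0.593%. Ptges, the prostaglandin E synthase downstream of Ptgs2, had 893 and 918 at 0 h and 15093 and 16433 at 6 h (log2 change 4.12, SE 0.12, adjusted p = 1.14e-235). Nos2, the inducible nitric oxide synthase, had 108 and 106 at 0 h and 2325 and 2305 at 6 h (log2 change 4.44, SE 0.55, adjusted p = 1.21e-14), and Slc7a2, the arginine importer that supplies it, had 569 and 533 at 0 h and 11363 and 12463 at 6 h (log2 change 4.44, SE 0.16, adjusted p = 2.68e-160). Irg1, which makes the antibacterial metabolite itaconate, had 6342 and 6643 at 0 h and 47723 and 50956 at 6 h (log2 change 2.93, SE 0.14, adjusted p = 4.09e-98). The replicates of these 4 genes lay close together at each time. Enzymes of other eicosanoid branches went down: Ptgs1, the constitutive cyclooxygenase, fell from 141 and 162 to 43.5 and 41.8 (log2 change -1.83, SE 0.43, adjusted p = 0.000166), and Tbxas1, the thromboxane synthase, fell from 1464 and 1422 to 700.0 and 610.0 (log2 change -1.14, SE 0.14, adjusted p = 1.45e-15). Alox5ap, which activates 5-lipoxygenase (-1.09, adjusted p = 1.9e-16), and Hpgds, the prostaglandin D synthase (-0.65, adjusted p = 2.35e-07), also fell on the log2 scale. The log2 change of Ptges was smaller in TET iTKO than in WT (difference -0.76, SE 0.18, adjusted p = 0.00913). That call was lost without either TET iTKO 0 h library, the TET iTKO 6 h library of replicate 1, either WT 0 h library or the WT 6 h library of replicate 2 (adjusted p = 0.0537 to 0.259). In edgeR the difference was not called (adjusted p = 0.259). Ptges had 434 and 469 at 0 h and 11858 and 14825 at 6 h in WT, at each time below both TET iTKO libraries.

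Feedback inhibitors of cytokine and MAP kinase signalling moved in both directions, with 8 of 23 called higher and 5 lower. Socs3, the inhibitor of interleukin-6 receptor signalling, had 878 and 1210.0 at 0 h and 5476 and 7307 at 6 h (log2 change 2.61, SE 0.16, adjusted p = 3.05e-55). Its values in WT were 381 and 312 at 0 h and 5796 and 6292 at 6 h. The log2 change was smaller in TET iTKO (difference -1.52, SE 0.23, adjusted p = 2.29e-07), and edgeR did not call this difference (adjusted p = 0.114). Dusp16, a MAP kinase phosphatase (2.38, adjusted p = 4.34e-50), and the RNA-degrading Zc3h12c (2.13, adjusted p = 2.29e-61) and Zc3h12a, known as regnase-1 (1.48, adjusted p = 2.2e-23), rose on the log2 scale. Zfp36l1, which destabilises AU-rich transcripts, fell from 2622 and 2616 to 476 and 442 (log2 change -2.51, SE 0.15, adjusted p = 1.11e-59). Spry2 (-1.32, adjusted p = 1.11e-10), Dusp6 (-1.11, adjusted p = 1.29e-11) and Dusp3 (-0.88, adjusted p = 6.89e-10), all of which restrain MAP kinase signalling, fell as well.

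In the fit of 8 libraries without a replicate block, interferon-stimulated genes were called higher in TET iTKO cells at about the share of all tested genes. Most of them started at a higher level than in WT. With the replicate block nested in genotype the list was above that share. There 18 members were called higher, while the genes called higher in all went only from 1433 to 1612. Without a block, 6 of 48 tested members (12.5%, against 11.8% of all tested genes) were called higher and 1 lower, with a median log2 change of 0.15. In WT 30 were called higher and 1 lower, with a median of 0.68. The numbers called higher depended on the fit. They were 13 in TET iTKO and 34 in WT with the replicate block, 18 and 37 with the nested form of that block, 17 and 25 in the fits of 4 libraries, and 19 and 37 in those fits with the block. Without the 0 h WT library of replicate 1 they were 7 and 13, and without the 6 h WT library of replicate 2 they were 11 and 14. The list took 2.03% and 2.18% of TET iTKO counts at 0 h and 2.20% and 2.44% at 6 h, and 1.36% and 1.75% of WT counts at 0 h and 1.92% and 3.06% at 6 h. In 44 of the 48 genes both unstimulated TET iTKO libraries exceeded both unstimulated WT libraries. The share of all tested genes with this order was not computed, and the genotypes were not tested against each other at 0 h. The TET iTKO change was below the WT change in all 48 as fitted. Over all tested genes the share below WT was not computed either, and the 48 genes were measured in the same 8 libraries. DESeq2 called the difference of the response in 0 of the 48 (7 at an unadjusted p under 0.05, all lower in TET iTKO) and edgeR in 0. With the replicate block nested in genotype DESeq2 called it in 27, all lower in TET iTKO. The WT libraries at 6 h stood apart from each other in this list more than the TET iTKO libraries did, and all 8 libraries shared the estimate of the spread.

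**Figure D3:**
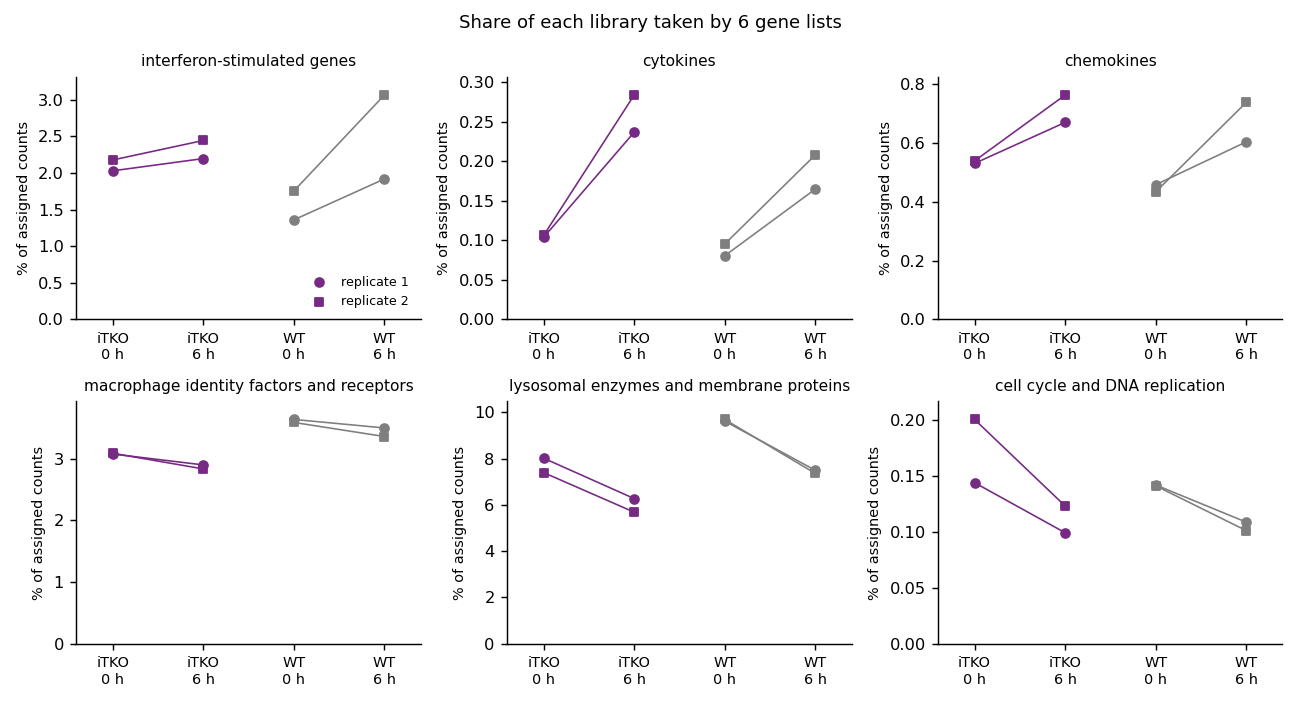
Share of all assigned counts (y axis, percent) that each of several gene lists took in each library, with 0 h and 6 h libraries of a replicate joined by a line for TET iTKO and WT. In the interferon-stimulated list the TET iTKO lines run from 2.03% and 2.18% to 2.20% and 2.44%, and the WT lines start lower and rise more.

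The members called higher were guanylate-binding proteins, Irf1, Ifih1 and Parp14. Gbp5, a GTPase that acts against intracellular bacteria, had 671 and 809.9 at 0 h and 4712 and 6604 at 6 h (log2 change 2.93, SE 0.55, adjusted p = 1.05e-06). Gbp3 and Gbp2, of the same family, had 1295 and 1468 at 0 h and 3581 and 4347 at 6 h (log2 change 1.52, SE 0.48, adjusted p = 0.00989) and 3869 and 4369.8 at 0 h and 9001 and 10308 at 6 h (log2 change 1.23, SE 0.40, adjusted p = 0.0127), and Irf1, an interferon regulatory factor, had 1537 and 1830.2 at 0 h and 2989.6 and 3621 at 6 h (log2 change 0.97, SE 0.35, adjusted p = 0.0294). In each of these genes both stimulated libraries were above both unstimulated libraries. The calls of Gbp3, Gbp2 and Irf1 were each lost without any 1 of the 4 TET iTKO libraries, and without each TET iTKO library in turn 2 or 3 members were called higher. Without either 6 h WT library 11 members were called higher, and with the replicate block nested in genotype 18 were. Irf8, a lineage factor of macrophages that the list also holds, fell (-0.58, adjusted p = 2.68e-05). Rsad2, which encodes the antiviral protein viperin and was named after its values were seen, had 12323 and 13726 at 0 h and 19611 and 24763 at 6 h in TET iTKO and 5836 and 10117 at 0 h and 18351 and 44976 at 6 h in WT. It was not called in TET iTKO (log2 change 0.77, SE 0.53, adjusted p = 0.350), and its response differed from WT by -1.22 (SE 0.74, adjusted p = 1.00) without a block and with an adjusted p of 0.00149 with the block nested in genotype.

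Part of the genes of antigen presentation rose. Of 16 genes of MHC class II presentation and costimulation 6 were called higher and 0 lower (1 at an unadjusted p under 0.05, 0 in edgeR, 1 with the replicate block nested in genotype). Cd40, the receptor of T cell help, had 270.5 and 253 at 0 h and 2092 and 2707 at 6 h (log2 change 3.20, SE 0.22, adjusted p = 8.74e-47). Icam1, the adhesion ligand of LFA-1, had 1802 and 2076 at 0 h and 12068 and 14299 at 6 h (log2 change 2.76, SE 0.13, adjusted p = 1.32e-93), and Icosl, a ligand of the T cell receptor ICOS, had 120.1 and 111 at 0 h and 406 and 533 at 6 h (log2 change 2.02, SE 0.31, adjusted p = 8.49e-10). Ciita, the master factor of class II genes, had 36.4 and 37.8 at 0 h and 149 and 165 at 6 h (log2 change 2.09, SE 0.38, adjusted p = 4.36e-07). All 4 were higher in both stimulated libraries than in either unstimulated one. The class II genes H2-Aa, Cd74 and H2-Eb1, named after their values were seen, had log2 changes of 0.07, 0.03 and 0.09 and were not called. In the MHC class I and immunoproteasome list 6 of 17 were called higher and 0 lower (0 at an unadjusted p under 0.05, 0 in edgeR), among them the proteasome activator Psme2 (0.91, adjusted p = 1.16e-18) and the peptide transporter Tap2 (0.69, adjusted p = 4.02e-06). That number was 3 without either 0 h TET iTKO library, 10 with the replicate block nested in genotype, and 13 in WT. The log2 change was below that of WT in all 17 genes of this list as fitted. The share of all tested genes below WT was not computed. The difference was called for 0 of the 17 in DESeq2 (7 at an unadjusted p under 0.05) and in edgeR, and for 4 with the block nested in genotype.

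Among inflammasome genes 6 of 16 rose and 3 fell. Nlrp3, the sensor whose induction primes the inflammasome, had 897 and 1051 at 0 h and 5687 and 7820.4 at 6 h (log2 change 2.79, SE 0.16, adjusted p = 8.33e-67). Mefv, which encodes pyrin, rose from 1186 and 1188 to 4630.4 and 4534 (log2 change 1.95, SE 0.13, adjusted p = 2.49e-51), and Casp4, which encodes the cytosolic lipopolysaccharide sensor caspase-11, rose from 899.9 and 885 to 2170.3 and 2322 (log2 change 1.33, SE 0.18, adjusted p = 1.07e-12). Nlrc4, the adaptor of flagellin sensing, rose as well (0.91, adjusted p = 2.18e-07). Nlrp1b fell from 122 and 137 to 21.2 and 28.7 (log2 change -2.37, SE 0.42, adjusted p = 1.85e-07), and Pycard (-0.72, adjusted p = 1.06e-05) and the ATP-gated channel P2rx7 (-0.74, adjusted p = 7.85e-06) fell less. Nlrp3 and its adaptor Pycard moved in opposite directions.

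In glucose metabolism 7 of 20 tested genes were called higher and 2 lower, against 14 and 1 in WT. The median log2 change was 0.26 in TET iTKO and 0.38 in WT. The difference of the response itself was called for 2 of the 20 genes in DESeq2 and for 0 in edgeR. Slc2a6, a hexose transporter of the lysosome, had 441 and 536 at 0 h and 4067 and 4433 at 6 h (log2 change 3.12, SE 0.16, adjusted p = 8.62e-84). Pfkl, the liver form of phosphofructokinase, rose from 876 and 791 to 2159 and 2082 (log2 change 1.35, SE 0.14, adjusted p = 1.39e-21), Eno2 rose from 160.1 and 178 to 544 and 598 (log2 change 1.75, SE 0.23, adjusted p = 6.39e-13), and the lactate exporter Slc16a3 rose from 720.4 and 763 to 1637 and 2006 (log2 change 1.30, SE 0.16, adjusted p = 3.82e-14). Hk3, a hexokinase of myeloid cells, fell from 6571 and 5847 to 4217 and 3735 (log2 change -0.64, SE 0.13, adjusted p = 1.8e-05). Pkm, pyruvate kinase, was lower by a small amount (-0.31, adjusted p = 0.0190), and that call was lost without either TET iTKO 0 h library or the TET iTKO 6 h library of replicate 1 (adjusted p = 0.0822 to 0.198). The log2 change of Slc2a6 was smaller than in WT (difference -0.98, SE 0.23, adjusted p = 0.00890), as was that of Hk2, another hexokinase that was named after its values were seen (difference -0.65, SE 0.16, adjusted p = 0.0124). These differences were lost without the TET iTKO 0 h library of replicate 2, the TET iTKO 6 h library of replicate 1, either WT 0 h library or the WT 6 h library of replicate 2 (adjusted p = 0.101 to 0.527) for Slc2a6, and without the TET iTKO 0 h library of replicate 2, the TET iTKO 6 h library of replicate 1, either WT 0 h library or the WT 6 h library of replicate 1 (adjusted p = 0.0530 to 0.532) for Hk2. Hk2 had 2581 and 2794 at 0 h and 2800.1 and 2913 at 6 h in TET iTKO and was not called (0.09, adjusted p = 0.680), and had 2129.9 and 2169.6 at 0 h and 3762 and 3404 at 6 h in WT.

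Among genes of mitochondrial metabolism, few subunits of oxidative phosphorylation passed the test. The tricarboxylic acid cycle list was near the share of all tested genes, with 8% called higher and 12% lower against 11.8% and 10.7%. In the tricarboxylic acid cycle 2 of 25 were called higher and 3 lower, with Idh2 (-0.79, adjusted p = 1.24e-06), Idh1 (-0.78, adjusted p = 1.47e-06) and Mdh1 (-0.65, adjusted p = 9.98e-06) lower and Dld (0.43, adjusted p = 0.000463) higher on the log2 scale. Idh1 fell from 2092 and 2115 to 1373 and 1086 and Idh2 from 913 and 890.0 to 503 and 536. Pcx, pyruvate carboxylase, was the other member called higher (1.49, adjusted p = 0.00622), and its call was lost in the fit of 4 libraries with the replicate block (adjusted p = 0.0547) and without the TET iTKO 0 h library of replicate 1 or the TET iTKO 6 h library of replicate 2 (adjusted p = 0.0762 to 0.156). Among 66 nuclear-encoded subunits of oxidative phosphorylation 0 were called higher (2 at an unadjusted p under 0.05, 0 in edgeR) and 1 lower, Ndufv2 (-0.35, adjusted p = 0.0335), whose call was lost in the fit of 4 libraries (adjusted p = 0.0532) and without either TET iTKO 0 h library, either TET iTKO 6 h library or either WT 0 h library (adjusted p = 0.0529 to 0.198). With the replicate block nested in genotype 1 was called higher and 3 lower, and edgeR called 4 lower. The cytosolic ribosomal proteins had 0 of 54 called in each direction (1 higher and 0 lower at an unadjusted p under 0.05, 0 in edgeR, 1 higher with the nested block), with a median of -0.01 and a share of counts that differed more between replicates (0.914% and 1.07% at 0 h) than between times (0.855% and 0.980% at 6 h). In the endoplasmic reticulum list 2 of 22 were called higher and 3 lower, with Herpud1 (1.10, adjusted p = 0.000381) and Atf6 (-0.53, adjusted p = 5.7e-05) farthest from 0 among those called. The Herpud1 call was lost without the TET iTKO 0 h library of replicate 1 or the TET iTKO 6 h library of replicate 2 (adjusted p = 0.0523 to 0.0690). Without the 0 h TET iTKO library of replicate 1 this list had 0 called higher and 1 lower, and without the 6 h library of replicate 2 it had 0 called higher.

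Among genes of lipid handling, the cholesterol synthesis and uptake list was not above the share of all tested genes. Of its 23 tested genes 2 were called higher and 2 lower, 8.70% in each direction against 11.8% and 10.7% of all tested genes. Its median log2 change was 0.004. The number called higher was 1 with either replicate block, in both fits of 4 libraries and without any 1 of the 8 libraries, and 1 was called lower without the 0 h TET iTKO library of replicate 1 or the 6 h library of replicate 2. Sc4mol, a sterol oxidase, fell from 843 and 907 to 561 and 474 (log2 change -0.76, SE 0.15, adjusted p = 3.45e-06). Among 13 efflux and liver X receptor genes 3 rose and 3 fell. Nr1h3, the liver X receptor itself, rose from 2126 and 2397 to 3989 and 4493 (log2 change 0.91, SE 0.13, adjusted p = 2.46e-10), Abca1, the cholesterol exporter, rose from 8753 and 7745 to 13022 and 10512 (log2 change 0.51, SE 0.13, adjusted p = 0.000418), and Abcg1 went from 3130.2 and 2598 to 2245 and 1877 (log2 change -0.47, SE 0.17, adjusted p = 0.0256). The calls of the transporters depended on single libraries: Abca1 was not called without the TET iTKO 0 h library of replicate 2 or the TET iTKO 6 h library of replicate 1 (adjusted p = 0.0516 to 0.0675), and Abcg1 was not called in edgeR (adjusted p = 0.0710) or without the TET iTKO 0 h library of replicate 1 or the TET iTKO 6 h library of replicate 2 (adjusted p = 0.304 to 0.370). Ch25h, which makes 25-hydroxycholesterol, rose (log2 change 0.66, SE 0.17, adjusted p = 0.00103), less than in WT (difference -0.98, SE 0.25, adjusted p = 0.0233), and its call was lost without the TET iTKO 0 h library of replicate 1 or the TET iTKO 6 h library of replicate 2 (adjusted p = 0.0528 to 0.0572). The Ch25h difference was lost in edgeR (adjusted p = 0.262). It was also lost without either TET iTKO 0 h library, the TET iTKO 6 h library of replicate 1, either WT 0 h library or the WT 6 h library of replicate 2 (differences -0.70 to -1.06). The number of efflux genes called lower was 0 without the 0 h TET iTKO library of replicate 1 or the 6 h library of replicate 2.

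Antioxidant genes rose, with 13 of 24 members of the NRF2 and antioxidant list called higher and 2 lower (median log2 change 0.45). Beside Slc7a11, Sod2, the mitochondrial superoxide dismutase, had 7579 and 7966 at 0 h and 31860.0 and 32078 at 6 h (log2 change 2.04, SE 0.10, adjusted p = 6.51e-91). Gsr, glutathione reductase, rose from 1231 and 1267 to 4322 and 4044 (log2 change 1.74, SE 0.11, adjusted p = 2.35e-56), and Txnrd1, thioredoxin reductase, rose from 2933 and 2951 to 7640.1 and 7612 (log2 change 1.37, SE 0.10, adjusted p = 3.22e-41). Gpx1, a glutathione peroxidase, fell from 5647 and 6713 to 4112 and 4051 (log2 change -0.60, SE 0.11, adjusted p = 5.81e-07). The number called lower was 1 in the fit of 4 libraries and without either 0 h WT library, either 0 h TET iTKO library or the 6 h TET iTKO library of replicate 2. Replicates of Sod2 and Txnrd1 were almost equal at each time. In WT Sod2 had 4886 and 4271 at 0 h and 31839 and 32071 at 6 h, and its log2 change differed between genotypes by -0.76 (SE 0.14, adjusted p = 7.63e-05). EdgeR did not call the Sod2 difference (adjusted p = 0.141). In the iron list 7 of 14 were called higher and 4 lower, with Cp, the ferroxidase ceruloplasmin (1.54, adjusted p = 2.09e-21), Lcn2, the siderophore-binding lipocalin-2 (1.38, adjusted p = 2.27e-16), and Hp, haptoglobin (1.31, adjusted p = 8.34e-12), higher. Steap3, an iron reductase of endosomes (-2.31, adjusted p = 6.84e-29), and the iron exporter Slc40a1 (-1.40, adjusted p = 7.82e-07) fell. Lcn2 went from 1759.8 and 1301 to 4302 and 3659, and its log2 change was smaller than in WT (difference -1.01, SE 0.23, adjusted p = 0.00845). That call was lost in edgeR (adjusted p = 0.292). It was also lost without the TET iTKO 0 h library of replicate 1, the TET iTKO 6 h library of replicate 2 or the WT 0 h library of replicate 2 (differences -0.78 to -0.90). The number of iron genes called higher was 4 without the 0 h TET iTKO library of replicate 2 or the 6 h library of replicate 1, and 2 were called lower without the former.

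More genes of macrophage identity, phagocytosis and the lysosome fell than rose. In the identity list 13 of 24 tested genes were called lower and 3 higher (median log2 change -0.44). Gas6 and Mertk, a ligand and its receptor in the uptake of apoptotic cells, went from 2826 and 2050.5 to 745 and 598 (log2 change -1.86, SE 0.15, adjusted p = 2.89e-32) and from 2244 and 1738 to 718 and 442 (log2 change -1.78, SE 0.19, adjusted p = 4.63e-20). Fcgr3, an activating Fc receptor, fell from 3379 and 2698 to 1267 and 1049 (log2 change -1.39, SE 0.14, adjusted p = 4.6e-22), whereas Fcgr2b, the inhibitory Fc receptor, rose from 1716 and 1599 to 5454 and 5927 (log2 change 1.78, SE 0.12, adjusted p = 3.74e-46). In these 4 genes no stimulated library overlapped an unstimulated one. Csf1r, the M-CSF receptor, rose a little, from 25049 and 27134 to 32752 and 34515 (log2 change 0.37, SE 0.09, adjusted p = 0.000613), and was not called without the TET iTKO 0 h library of replicate 1 (adjusted p = 0.0502). Emr1, which encodes F4/80, rose from 50391 and 53412 to 71173 and 68698 (log2 change 0.43, SE 0.09, adjusted p = 3.95e-05). The scavenger list had 9 of 17 called lower and 4 higher, with Mrc1, the mannose receptor, at 2905 and 2197 at 0 h and 931 and 677 at 6 h (log2 change -1.67, SE 0.19, adjusted p = 1.52e-16) and Olr1, a receptor of oxidised lipoprotein, at 27.9 and 18 at 0 h and 257 and 186 at 6 h (log2 change 3.30, SE 0.34, adjusted p = 4.44e-21). Without the 6 h TET iTKO library of replicate 2 the numbers called lower and higher were 5 and 2, and 2 were called higher without the 6 h WT library of replicate 2. Cd5l, a secreted inhibitor of apoptosis in macrophages, fell from 5985 and 6193 to 2655 and 3566 (log2 change -0.97, SE 0.16, adjusted p = 8.89e-09).

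The lysosomal genes called lower mostly fell by small amounts. The list's 36 members took 8.02% and 7.40% of all counts at 0 h and 6.27% and 5.69% at 6 h, and 11 were called lower and 1 higher. Ctsl, an abundant cathepsin, had 108729 and 92093 at 0 h and 61711 and 55692 at 6 h (log2 change -0.77, SE 0.11, adjusted p = 5.6e-11). Lipa, the lysosomal acid lipase, fell from 15769.9 and 14378 to 9941 and 8219 (log2 change -0.73, SE 0.12, adjusted p = 5.85e-09), and Atp6v0d2, a proton pump subunit, fell from 421 and 302 to 128 and 78.3 (log2 change -1.81, SE 0.28, adjusted p = 2.54e-09). Ctsc, which activates granule proteases, was the member called higher (0.57, adjusted p = 4.67e-05). The replicate block nested in genotype gave 19 called lower and 3 higher, and without the 0 h TET iTKO library of replicate 1 the numbers were 6 and 3. In WT 12 were called lower and 1 higher.

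**Figure D4:**
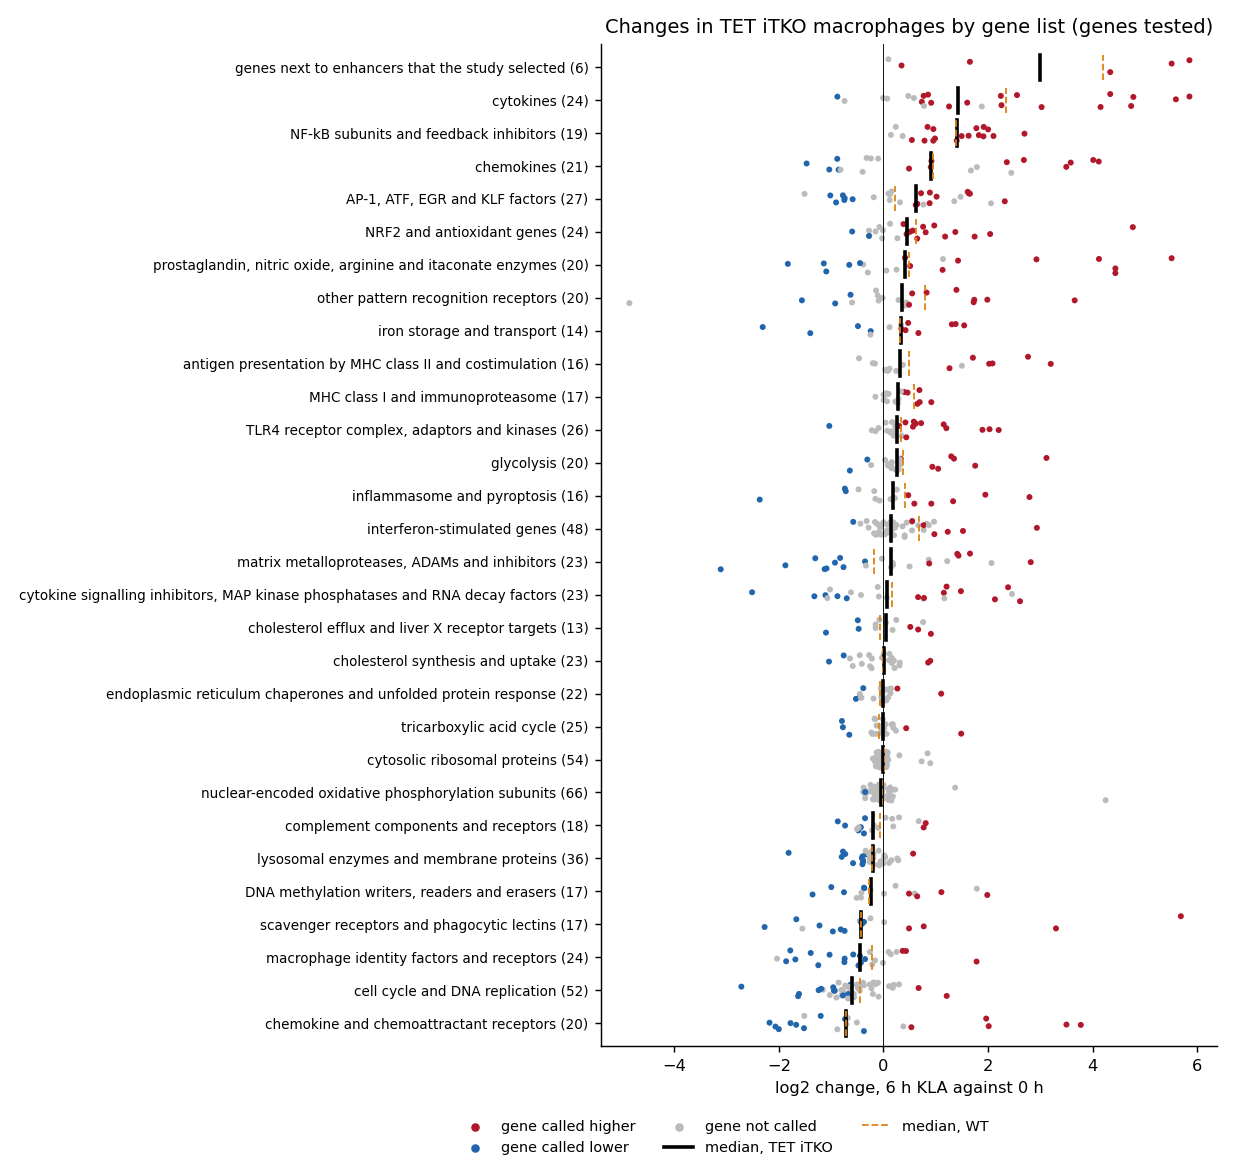
Log2 change after KLA in TET iTKO BMDMs (x axis) of every tested gene of each list, 1 point a gene, with the number tested beside the list's name, a solid line at the TET iTKO median and a dashed line at the WT median. NF-kB members (16 called higher, 0 lower) lie to the right of 0, chemoattractant receptors (5 higher, 9 lower) lie mostly to the left, and the TET iTKO median of interferon-stimulated genes (0.15) lies left of that of WT (0.68).

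Part of the cell cycle genes fell. Of 52 tested members 12 were called lower and 2 higher (median log2 change -0.61), and their share of counts fell from 0.144% and 0.200% to 0.0991% and 0.123%. Ccnd1, cyclin D1, which M-CSF maintains, had 2661 and 3962 at 0 h and 371 and 633 at 6 h (log2 change -2.72, SE 0.20, adjusted p = 3.06e-38). Mcm6, of the replicative helicase, fell from 1359.5 and 1874 to 596 and 772 (log2 change -1.24, SE 0.17, adjusted p = 7.83e-12), and E2f2 fell from 136 and 123 to 44.6 and 40 (log2 change -1.62, SE 0.36, adjusted p = 6.34e-05). Mki67, the proliferation marker Ki-67, had 285 and 792 at 0 h and 437 and 722 at 6 h (log2 change 0.11, SE 0.57, adjusted p = 0.938), and Ccnb1, the mitotic cyclin B1, had 58.2 and 139 at 0 h and 70.2 and 104 at 6 h (log2 change -0.19, SE 0.46, adjusted p = 0.853), both not called. For Mki67 and Ccnb1 the replicates differed more than the times, with replicate 2 higher at 0 h and at 6 h, as the progenitor markers were, and the part of these cells was not tested. The number called lower was 7 without the 0 h TET iTKO library of replicate 2. The replicate block left 1 called higher, and both genes called higher were lost without the 0 h library of replicate 1 or either 6 h TET iTKO library.

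Of 17 tested genes that write, read or remove DNA methylation 4 rose and 5 fell. Gadd45b, which has been tied to DNA repair and demethylation, had 369 and 368 at 0 h and 1242 and 1673 at 6 h (log2 change 1.99, SE 0.24, adjusted p = 1.52e-15). Dnmt1, the maintenance methyltransferase, had 2344 and 2269 at 0 h and 1193 and 1118 at 6 h (log2 change -1.0, SE 0.12, adjusted p = 1.32e-15), a fall of 2.00-fold. Beside Tet2 and Gadd45b, Gadd45a rose from 1335 and 1142 to 1738 and 2129 (log2 change 0.64, SE 0.16, adjusted p = 0.000375), and its call was lost without the TET iTKO 6 h library of replicate 2 (adjusted p = 0.0650). In WT Gadd45a had 1308 and 1726 at 0 h and 1155 and 1101 at 6 h, and it was the gene called in opposite directions in the genotypes (difference 1.07, SE 0.22, adjusted p = 0.00117). That difference was lost in edgeR (adjusted p = 0.184), with the replicate block nested in genotype (adjusted p = 0.0747) and without the TET iTKO 0 h library of replicate 2 or the WT 0 h library of replicate 2 (adjusted p = 0.123 to 0.190). Gadd45g (-1.36, adjusted p = 0.00100), Mbd2 (-0.37, adjusted p = 0.00295) and Mbd4 (-0.76, adjusted p = 0.0315) were lower. Gadd45g was not called without the TET iTKO 0 h library of replicate 2 (adjusted p = 0.0612), and Mbd2 was not called without the TET iTKO 0 h library of replicate 1 (adjusted p = 0.0658). Mbd4 was not called with the block nested in genotype (adjusted p = 0.0550), in the fits of 4 libraries without and with the block (adjusted p = 0.0846 and 0.111) or without either TET iTKO 0 h library, the TET iTKO 6 h library of replicate 2 or either WT 0 h library (adjusted p = 0.0645 to 0.333). The number called lower was 2 without the 0 h TET iTKO library of replicate 1 and 3 without the 0 h or the 6 h library of replicate 2, and 2 were called higher without the latter.

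Secreted enzymes and complement changed in part. C3, the central complement component, had 34026 and 29403 at 0 h and 57237 and 53766 at 6 h (log2 change 0.81, SE 0.11, adjusted p = 6.79e-13), and Cfb, complement factor B, had 29787 and 22716 at 0 h and 48564 and 40889.6 at 6 h (log2 change 0.77, SE 0.13, adjusted p = 1.26e-07). Both rose, whereas 6 of the 18 complement genes were called lower, among them the C5a receptor C5ar1 (-0.73, adjusted p = 1.52e-07) and C1qc (-0.48, adjusted p = 0.000214). Without the 0 h TET iTKO library of replicate 1 that number was 3. In the metalloprotease list 5 of 23 were called higher and 9 lower. Mmp14, a membrane-type collagenase, rose from 8066 and 6934 to 23438 and 23779 (log2 change 1.65, SE 0.10, adjusted p = 5.8e-54). Plau, the urokinase plasminogen activator, fell from 2289.8 and 1992 to 686 and 484 (log2 change -1.88, SE 0.16, adjusted p = 1.17e-30), and Adam8 fell from 28799 and 29216 to 11968 and 11524 (log2 change -1.30, SE 0.09, adjusted p = 7.86e-41). The number called higher was 3 without the 0 h TET iTKO library of replicate 2 or the 6 h library of replicate 1.

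The study picked several enhancers for DNA methylation analysis, and of 6 neighbouring genes 5 were called higher. The study chose these enhancers from stimulated macrophages, so their direction is not independent evidence. Batf, Il1b, Il6 and Ptgs2 are described above. Alcam, an adhesion molecule, had 3048 and 2691 at 0 h and 3699 and 3591 at 6 h (log2 change 0.35, SE 0.12, adjusted p = 0.0191), and the call was lost without the TET iTKO 0 h library of replicate 2 or either TET iTKO 6 h library (adjusted p = 0.0835 to 0.306). Mdfic, an inhibitor of MyoD family factors, had 5096 and 4420.1 at 0 h and 4537 and 5617 at 6 h (log2 change 0.09, SE 0.14, adjusted p = 0.733) and was not called.

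The changes of the 2 TET iTKO pairs were compared. Over 9677 genes with a mean of at least 50 normalised counts the log2 changes of the pairs had a Pearson r of 0.903. The points are genes of shared libraries and are not replicates. The median absolute difference between the pairs was 0.150 on the log2 scale of the normalised count plus 1. All 2726 called genes changed in the same direction in both pairs. The calls were made in these same libraries, and 1431 genes called higher and 1290 called lower had no overlap between the times. Such genes must change in the same direction in both pairs, so this is no separate evidence of agreement. In 7 genes the pairs differed by more than 2, among them Slc1a2 and Pdgfrb, the receptor of stromal cells, which had 21.8 and 1.80 at 0 h and 145 and 247 at 6 h. Summed stromal markers went from 34.3 and 38.2 CPM at 0 h to 65.7 and 77.4 at 6 h, with Pdgfrb among these markers. The ribosomal RNA precursor Rn45s and Lars2 also differed between the pairs (Rn45s 107978 and 27444 at 0 h and 62170.5 and 102161 at 6 h), and Rn45s took 0.176% to 0.677% of counts. Neither was called.

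Some genes called higher lay beside each other. Among 11331 tested genes placed on mm9, 52 runs of at least 3 neighbouring genes were all called higher, and the longest held 5. They included Eml2, Opa3, Vasp, Ppm1n and Rtn2 at chr7:19761770-19881513 (log2 changes 0.45 to 2.80), and Klf3, Tlr1, Tlr6 and Fam114a1 at chr5:65194628-65433113 (0.70 to 1.39). Opa3 was not called with the replicate block nested in genotype (adjusted p = 0.0546). No chance level was computed for these runs.

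Most of the TET iTKO response was shared with WT. The same direction was called in both genotypes for 1131 genes called higher and 964 called lower, which is 76.9% of the TET iTKO calls and 72.9% of the WT calls, and 1 gene (Gadd45a) was called in opposite directions. The genotypes share no library. Across the 11823 genes tested in WT the log2 changes had a Pearson r of 0.773, given as a description of genes measured in 8 libraries. A further 630 genes were called in TET iTKO alone and 777 in WT alone, and among these the difference of the response was called for 4 and 8. In all, the difference was called for 52 genes (0.429% of those tested), and 544 genes had an unadjusted p under 0.05. EdgeR called 1 gene (721 at an unadjusted p under 0.05), and the replicate block nested in genotype gave 231. None of the differences given by name for single genes was called in edgeR. The log2 change in TET iTKO was below that in WT in 46 of the 52 genes and above it in 6. The number of called differences was 12 without the 0 h TET iTKO library of replicate 2, 17 and 23 without the 0 h WT library of replicate 2 and 1, 27 without the 6 h TET iTKO library of replicate 1 and 139 without the 6 h WT library of replicate 1. The differences of Ccl7, Fpr1, Fpr2, Socs3 and Sod2 kept their call in every DESeq2 fit.

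Among the 46 genes with a lower log2 change, most were called higher in both genotypes and were at a higher level in unstimulated TET iTKO cells. Of the 46, 35 were called higher in both genotypes, 5 in WT only, 3 were called lower in TET iTKO only and 3 lower in both. In 43 of them both unstimulated TET iTKO libraries exceeded both unstimulated WT libraries. The 0 h levels enter the difference by which these genes were chosen, so this order is in part set by that choice. The share of all tested genes with this order was not computed. Fscn1, the actin-bundling protein of mature dendritic cells, had 9.70 and 40.5 at 0 h and 161 and 200.1 at 6 h in TET iTKO and 0 and 1.53 at 0 h and 147 and 163 at 6 h in WT (difference -4.66, SE 1.19, adjusted p = 0.0282). Gpr18, a receptor of lipid mediators, had 47.3 and 84.5 at 0 h and 183 and 321 at 6 h and, in WT, 1.06 and 3.82 at 0 h and 93.8 and 116 at 6 h (difference -3.39, SE 0.80, adjusted p = 0.00897). Cd300e, an activating receptor of monocytes, had 243 and 353 at 0 h and 604 and 924 at 6 h and, in WT, 16.9 and 15.3 at 0 h and 195 and 214 at 6 h (difference -2.32, SE 0.42, adjusted p = 5.91e-05). In these genes the WT libraries were lowest before KLA, and the mean of the stimulated TET iTKO libraries was above that of WT. Bmp1, a protease that processes procollagen (-2.92, SE 0.75, adjusted p = 0.0313), Zfp811 (-2.84, SE 0.54, adjusted p = 0.000169) and Rnf144a (-2.29, SE 0.59, adjusted p = 0.0316) had the same order. Bmp1 had 4.23 and 0.76 in WT at 0 h. In Fscn1, Gpr18 and Bmp1 the unstimulated WT libraries were thus at or near the floor of 3 counts, and the sizes of their differences are not exact. With the replicate block nested in genotype Bmp1 was not called (adjusted p = 0.213), and Fscn1 and Gpr18 had no adjusted p. Over these 6 genes and the 5 of higher count in the next paragraph, 2 calls were lost with the nested block, 1 with the replicate block, and 10 without the 0 h WT library of replicate 2, 9 without the 0 h TET iTKO library of replicate 2, 7 without the 0 h WT library of replicate 1 and 6 without the 6 h TET iTKO library of replicate 1 or the 6 h WT library of replicate 2. Without the 6 h WT library of replicate 1 and the 0 h TET iTKO library of replicate 1 the losses were 3 and 1. Without the 6 h TET iTKO library of replicate 2 2 were called and 9 had no adjusted p.

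In 6 genes the log2 change was above that in WT. Tsc22d1, a transcription factor that TGF-beta induces, had 235 and 236 at 0 h and 514 and 770.1 at 6 h in TET iTKO and 337 and 375 at 0 h and 301 and 375 at 6 h in WT (difference 1.52, SE 0.31, adjusted p = 0.000628). Enc1, an actin-binding protein, fell in both genotypes, less in TET iTKO (difference 1.07, SE 0.28, adjusted p = 0.0316). Arhgap22 (0.91, SE 0.24, adjusted p = 0.0316) and Rap2a (0.76, SE 0.20, adjusted p = 0.0318), regulators of small GTPases, fell in WT and were not called in TET iTKO (Arhgap22 was called higher there in edgeR, adjusted p = 0.0450, and with the replicate block nested in genotype, adjusted p = 0.0389). Gadd45a is described above, and the other gene was Ppp1ca, at under 4 normalised counts in each TET iTKO library, which was named after its values were seen. Il6 and Il1b had higher levels in both TET iTKO libraries than in both WT libraries at each time, and their log2 changes differed from WT by -2.08 (SE 1.99, adjusted p = 1.00) and -2.19 (SE 0.73, adjusted p = 0.275), which did not pass. With the replicate block nested in genotype the Il1b difference was called (adjusted p = 0.000624) and that of Il6 was not (adjusted p = 0.893).

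**Figure D5:**
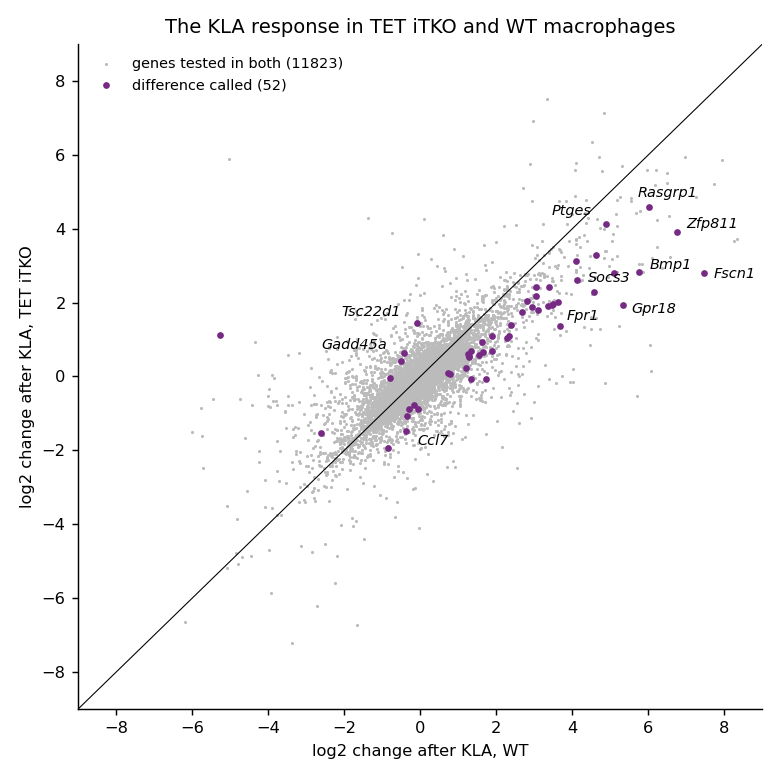
Log2 change after KLA in WT (x axis) and in TET iTKO (y axis) for the genes tested in both, with the 52 genes of a called difference coloured and the line of equal change drawn. Most coloured points lie below the line at positive WT changes, and r over all points is 0.773.

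The response was also read over a list chosen in another cohort. The 200 genes with the largest KLA increase in WT BMDMs of the Tdg cohort were chosen in libraries that the TET iTKO comparison did not use, and 194 of them were called higher in TET iTKO, with a median log2 change of 2.16 (2.59 in WT of the Tet cohort). Of the 200 genes with the largest decrease 174 were called lower, with a median of -1.70 (-1.76). The difference between the genotypes was called for 25 of the increases and for 1 of the decreases. Counts of the increases went from 1.17% and 1.30% of all assigned counts to 5.31% and 5.84% in TET iTKO, and from 0.800% and 0.828% to 4.34% and 5.09% in WT.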

How the data were processed

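Per the labels and the study's methods, BMDMs were stimulated with KLA for 6 h, total RNA was extracted, polyadenylated RNA was made into directional paired-end libraries, and reads were aligned to mm9 with HISAT2. The authors deposited HTSeq read counts per gene for each library, without normalization (23420 symbols and 5 tallies). The tallies stayed out of library sizes, and 56.1% to 60.6% of tallied pairs were assigned in the TET iTKO libraries. Reads shared by near-identical genes are not assigned, so ribosomal proteins and other families may be undercounted.

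The fit was the DESeq2 1.42.0 Wald test (R 4.3.3) on the 8 Tet cohort libraries with a term for each group, median-of-ratios size factors, independent filtering and unshrunken changes. The study's methods name DESeq2 1.30.0 and an adjusted p under 0.05 and give no further settings. The difference of the responses was its interaction contrast. Alternatives were edgeR 4.0.16 (quasi-likelihood, TMM), TMM factors in DESeq2, a count filter, a fit of 4 libraries, replicate blocks and each library left out. The names of the deposited tables pair the 0 h and 6 h libraries of a replicate. The deviations of paired libraries correlated at r = 0.453 (TET iTKO) and 0.489 (WT). On simulated counts with 200 genes changed by 2 on the log2 scale in the TET iTKO comparison, DESeq2 called 94% of them (14358 genes) and edgeR 92.5% (11438 genes), and unchanged genes made up 11.3% and 7.5% of the calls.

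Genes were named by a rule: the 15 largest called changes in each direction with a mean of at least 50 normalised counts and no overlap, up to 4 called genes a list and direction, a set of core genes, the 6 largest differences in each direction, and the 6 genes whose pairs differed most. The members and lists were chosen with earlier results of these data known. Positions are mm9 (GENCODE vM1, 21075 symbols matched), and promoters are RefSeq GRCm38.p6. Some items are not reported here. Read pairs carry no molecular identifiers, so floors cover counting error only.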

Additional observations from a re-analysis of the deposited data

Results flagged for a closer look

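The KLA response differed between TET iTKO and WT BMDMs in 52 genes by the DESeq2 test of the difference itself (0.429% of the genes tested), and these were listed because the same contrast gave different effects in the 2 genotypes. Among genes with a mean of at least 50 normalised counts, the differences with the TET iTKO change above the WT change were 1.52 in Tsc22d1, 1.07 in Enc1, 1.07 in Gadd45a, 0.91 in Arhgap22 and 0.76 in Rap2a on the log2 scale. The largest with the TET iTKO change below the WT change were -4.66 in Fscn1, -3.39 in Gpr18, -2.92 in Bmp1, -2.84 in Zfp811, -2.32 in Cd300e and -2.29 in Rnf144a. In Fscn1, Gpr18 and Bmp1 the WT libraries at 0 h were at or near the floor of 3 counts, so the size and order of their differences are not exact. EdgeR called 1 gene in all and none of these 11. The replicate block nested in genotype lost 2 of them (Bmp1 and Gadd45a) and gave no adjusted p for 2 (Fscn1 and Gpr18), the replicate block lost 1, and leaving out single libraries lost up to 10 (without the 0 h WT library of replicate 2). Groups of 2 libraries were too small for a test of single outlying libraries.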

How the results depend on the processing

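With 2 libraries a group, the numbers of calls for the TET iTKO response (2726) and the WT response stayed within 1.5 times under edgeR, TMM factors, a count filter, the fit of 4 libraries and the replicate blocks. EdgeR called 1538 genes higher and 1474 lower, and the replicate block nested in genotype 1612 and 1393. EdgeR kept 97.2% of the DESeq2 calls. Leaving out each library in turn gave 1888 to 2696 calls in TET iTKO and 1872 to 2791 in WT, with the lowest WT number without the 0 h WT library of replicate 1. The difference of the response was less stable. Its 52 calls became 1 in edgeR, 88 with the replicate block, 231 with the replicate block nested in genotype, and 12 to 139 when single libraries were left out. The cause was not tested. Interferon-stimulated genes called higher went from 6 to 9 in edgeR, 13 and 18 with the replicate block and its nested form, and 17 in the fit of 4 libraries. No named value changed direction with its call. An adjusted p that DESeq2 did not give was left out of these counts. Of 218 genes that the naming rule chose, edgeR lost the call of 5, the nested block 4, the fit of 4 libraries 10 and no omission of a library more than 37. Depth limits genes near the floor, where a change from 0 is a bound.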
